A study of Mus musculus with 6 samples.

Results

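Transcripts of the carbonic anhydrases were measured in whole mouse kidney after deletion of the transferrin receptor TfR1 in part of the nephron. The 10 genes described here (Car2, Car3, Car4, Car5b, Car8, Car9, Car12, Car13, Car14 and Car15) are 10 of the 24422 genes counted and were taken by gene symbol. RNA sequencing of poly-A RNA was performed on 6 kidneys of C57BL/6 mice at postnatal day 60, all kept on an iron-sufficient diet of 220 ppm. The 3 control kidneys were labelled wild type. The 3 others were labelled TfR1KO;KspCre with the genotype Tfr1f/f;KspCre, and are called knockout libraries. In these mice exons of TfR1 (gene symbol Tfrc) are floxed, and Cre expressed from the Ksp-cadherin promoter removes them in the distal nephron. Other cells of the kidney, the proximal tubule among them, keep the receptor unless Cre is active there, and the libraries hold all of these cells together.

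Carbonic anhydrases interconvert carbon dioxide and bicarbonate. In the kidney, cytosolic enzyme supplies the protons that tubule cells secrete and the bicarbonate that they return to blood, while membrane-bound enzyme facing the urine or the interstitium speeds the same reaction outside the cell. Members of the family differ mainly in where in the cell they sit. Car2, Car3 and Car13 are cytosolic, Car5b is mitochondrial, Car4 and Car15 are held at the cell surface by a lipid anchor, and Car9, Car12 and Car14 cross the membrane with the catalytic domain outside. Car8 is a related cytosolic protein that lacks a zinc-binding residue and has no carbonic anhydrase activity. On the mm9 assembly, with the GENCODE M1 annotation, 3 of the 10 genes lie in 1 cluster on chromosome 3: Car13 (chr3:14641727-14663002, plus strand), Car3 (chr3:14863538-14872351, plus) and Car2 (chr3:14886426-14900769, plus). The gene Car1 lies between Car13 and Car3, and 14.1 kb separate Car3 from Car2. Car14 lies far from the cluster on the same chromosome (chr3:95701691-95708614, minus).

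The sequence just upstream of 2 of the genes is shown because both genes were called lower in the knockout kidneys and both hold core letters bound by hypoxia-inducible factor (HIF). Car9 is a textbook HIF target. Each line gives the 120 bases before the transcription start that RefSeq annotates on GRCm38.p6, read 5′ to 3′ on the strand of the gene, with the match to the HIF core in capitals. The core was searched as ACGTG or GCGTG on both strands, and the capitals read CACGT because both matches are ACGTG on the opposite strand.
Car9, chr4:43506906-43507025, plus strand: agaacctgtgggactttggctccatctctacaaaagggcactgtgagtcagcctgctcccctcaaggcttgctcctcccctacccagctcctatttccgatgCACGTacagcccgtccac
Car14, chr3:95904686-95904805, minus strand: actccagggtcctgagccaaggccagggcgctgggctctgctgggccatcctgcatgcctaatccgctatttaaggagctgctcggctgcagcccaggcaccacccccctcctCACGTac
The match begins 5′ at position -18 in Car9 and at -7 in Car14, counted back from the start. Windows were found for 6 of the 10 genes, namely Car4, Car5b, Car9, Car12, Car14 and Car15. Car5b held 5 matches to GCGTG within 250 bases of its start and none to ACGTG, and Car4, Car12 and Car15 held neither. Of 32851 RefSeq windows, each searched over the 250 bases before the start, 16.6% held ACGTG, 28.2% held GCGTG and 38.6% held at least 1 of them, so these letters are common, and a match is a description of the sequence and not a bound site. The letters GTTAAT (a half-site of HNF1), CAAAGTCCA (a site of HNF4) and TATAAA were not in the 6 windows, and they were in 6.43%, 0.384% and 12.4% of all windows. The HIF core overlaps the E-box CACGTG where a C precedes it, and the E-box was not in the 6 windows and was in 6.02% of all windows.

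Total counts ranged from 11501053 (knockout 3) to 21001341 (control 1), and all 10 genes passed the filter on low counts. Counts of Rn45s, a ribosomal RNA, made up 2.59% of knockout 3, which holds the highest Car3 and the lowest Car15, against 0.506% to 0.745% in the other 5 libraries, and its part in those values was not tested. On the first principal component, which held 69.4% of the variance, knockout 1 lay at 9.67, between the controls (-72.6 to -53.2) and the other two knockouts (82.1 and 88.6). Control 2 differed from the other 5 libraries in sex-linked transcripts, with 52 counts of Xist against 10458 to 23845 and 1451 counts of the Y-linked Ddx3y against at most 4, and no knockout library had such Y-linked expression. Tfrc itself was at 138, 168 and 62.0 CPM (counts relative to the TMM-scaled total of the library) in controls 1 to 3 and at 214, 86.0 and 40.6 CPM in knockouts 1 to 3, which differed between the groups by -0.11 on the log2 scale (SE 0.62, edgeR adjusted p = 0.911). Its counts also cover exons outside the deleted stretch and cells without Cre, and they do not check the labels. The groups also differed in markers of cell types: 7 of 10 proximal tubule markers were called lower, while 8 of 9 immune, 3 of 5 fibroblast and 5 of 7 tubular injury markers were called higher.

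Carbonic anhydrase transcripts were lower in the knockout kidneys for 8 of the 10 genes by the sign of the fitted change, and 4 of these passed the test. The membrane-bound enzymes Car14, Car4 and Car9 fell 6.20-fold, 3.95-fold and 3.46-fold by group means, and the acatalytic Car8 fell 2.34-fold. Calls were made with edgeR's quasi-likelihood test at an adjusted p under 0.05 over all 15171 genes tested. By this test 4 of 10 were called lower, where 6.64% of all genes were, and 0 of 10 were called higher, where 10.6% of all genes were. In either direction 17.2% of all genes were called. At an unadjusted p under 0.05, 8 of the 10 passed, of which 7 were lower and 1, Car13, was higher, as did 5862 of the 15171. DESeq2's Wald test called 8 of 10 (Car2, Car4, Car5b, Car8, Car9, Car12 and Car14 lower and Car13 higher), where it called 24.7% of all genes. In 6 of 10 genes every knockout library lay below every control library, a separation found in 22.2% of all genes, and in 1 (Car13) every knockout lay above, as in 23.8% of all genes. The median log2 fold change of the 10 was -1.03, against 0.02 over all genes tested. In whole tissue, fewer cells of a type and less RNA per cell cannot be told apart.

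**Figure D1:**
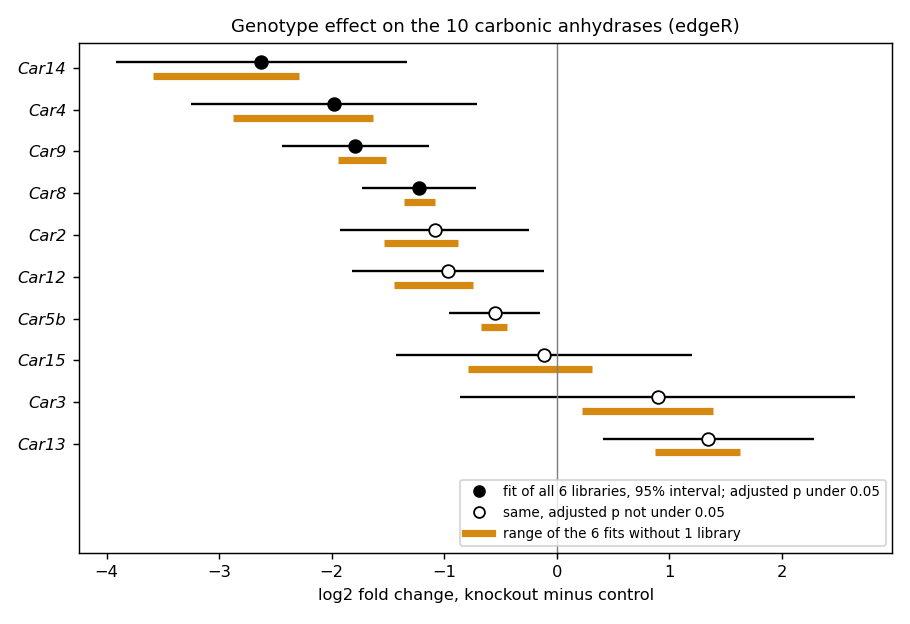
Log2 fold change (knockout minus control) of the 10 carbonic anhydrases, with 95% intervals as thin lines, filled circles where the edgeR adjusted p was under 0.05, and an orange bar for the range over the 6 fits that each leave out 1 library. The 4 filled circles lie between -2.62 (Car14) and -1.22 (Car8), and the bar crosses 0 for Car15 alone.

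The calls depended on which libraries were fitted. With knockout 1 left out, 8 of the 10 genes were called (Car3 and Car13 higher, Car2, Car4, Car8, Car9, Car12 and Car14 lower), where 34.4% of all genes were. With any other library left out, 0 of the 10 were called by edgeR, and over all genes 0 were called without control 1, control 2 or control 3, 73 without knockout 2 and 2 without knockout 3. With the ratio of Xist to Y-linked transcripts as a covariate, 0 of the 10 and 0 of all genes were called, and the adjusted p of Car8, Car9 and Car14 was 0.111 each and that of Car4 0.135. In the 5 fits that left out a library other than knockout 1, between 5 and 8 of the 10 had an unadjusted p under 0.05, as did between 4270 and 4823 of the 15408 to 15624 genes tested in each. Knockout 1 lay between the control mean and the mean of knockouts 2 and 3, on the log2 scale, in 8 of the 10 genes. The exceptions were Car3, where knockout 1 was below every control and the other two were above, and Car15, where knockout 1 was above every control.

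Among the cytosolic enzymes, Car2 is the high-activity form found in proximal tubule, loop and intercalated cells. It was at 439.9, 391 and 617 CPM in controls 1 to 3 and at 349, 168 and 166 CPM in knockouts 1 to 3. All 3 knockouts lay below the lowest control, knockout 1 by the smallest margin. The group means were 483 ± 119 and 228 ± 105 CPM (SD, n = 3 each), and the log2 fold change of -1.08 (SE 0.35, 95% interval -1.92 to -0.24) did not pass the test (edgeR adjusted p = 0.0720). Without knockout 1 it was -1.54 (adjusted p = 0.00607), and without control 3, the highest control, it was -0.87 (adjusted p = 0.181). Proximal tubule markers summed to between 10066 and 14173 CPM in the controls and to between 1816 and 5213 CPM in the knockouts, with 7 of 10 called lower. Thick ascending limb markers summed to between 5998 and 12389 CPM in the controls and to between 1171 and 7571 CPM in the knockouts, with 0 of 8 called, and intercalated cell markers to between 982 and 1239 CPM against 442 to 1388 CPM, with 1 of 10 called. Their part in the values of Car2 was not tested. Red cells also hold Car2, and the haemoglobin genes were listed at 0 in all libraries. Alas2, the 1 red cell marker tested, was at 10.2 to 16.2 CPM in the controls and at 7.41 to 15.5 CPM in the knockouts. Its log2 change was -0.27 (SE 0.37, edgeR adjusted p = 0.613), and the groups overlapped. The part of blood in the values of Car2 was not tested.

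Car13, a further cytosolic enzyme, was the least abundant of the 10 in the controls and the 1 gene whose knockouts all lay higher. It was at 4.33, 3.53 and 3.84 CPM in the controls and at 5.64, 15.5 and 8.73 CPM in knockouts 1 to 3. The controls lay close together, the knockouts were spread, and the groups did not overlap. The log2 fold change was 1.35 (SE 0.39, 95% interval 0.41 to 2.28), just short of the threshold (edgeR adjusted p = 0.0569). It passed with DESeq2's Wald test (adjusted p = 0.0110) and without knockout 1 (edgeR adjusted p = 0.0120), and without knockout 2, the highest library, it was 0.88 (adjusted p = 0.128). Immune cell markers summed to between 219.6 and 292 CPM in the controls and to 1234, 3132 and 1485 CPM in knockouts 1 to 3. This was the order of Car13 among the knockouts but not among the controls. Fibroblast markers summed to 734, 2850 and 3021 CPM in knockouts 1 to 3, which was another order. Urothelial markers summed to 826 CPM in knockout 2, the library with the highest Car13, and to between 14.2 and 69.1 CPM in the other 5 libraries. The part of these lists in the values of Car13 was not tested.

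Car3, the low-activity cytosolic enzyme that is abundant in fat and muscle, varied most within the groups. It was at 189, 114 and 82.1 CPM in the controls and at 40.9, 259.8 and 419 CPM in knockouts 1 to 3. The lowest and the highest library were both knockouts, so the groups overlapped. The log2 fold change was 0.90 (SE 0.74, 95% interval -0.86 to 2.66, edgeR adjusted p = 0.402). It ranged from 0.23 without knockout 3 to 1.39 without knockout 1, and passed the test in the latter fit (adjusted p = 0.0337).

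Fat cell markers also varied between the libraries. The 8 adipocyte markers summed to 561, 281 and 287 CPM in the controls and to 153, 529.8 and 859 CPM in knockouts 1 to 3. Knockout 1 was again the lowest and knockout 3 the highest, while the order of the other 4 libraries was not that of Car3. Adiponectin (Adipoq), made by fat cells, was at 40.4, 13.8 and 15.8 CPM in the controls and at 5.69, 42.0 and 67.4 CPM in the knockouts. Each of the 8 markers was lowest in knockout 1, but Plin1, Fabp4, Pparg and Lep were not highest in knockout 3. Fabp4, a lipid carrier of fat cells, was at 311 CPM in control 1 and 219.7 CPM in knockout 3. The fitted log2 changes of Plin1 (-0.54), Fabp4 (-0.30) and Lep (-1.64) had the opposite sign to that of Car3. None of them was at 0 in any library, and 0 of 8 were called. The log2 CPM of Car3 itself ran from 5.36 in knockout 1 to 8.71 in knockout 3. Relative to the mean log2 CPM of the 8 markers, Car3 lay 2.61, 2.79 and 2.65 above in the controls. In knockouts 1 to 3 it lay 2.73, 3.35 and 3.43 above. On this scale the groups overlapped and differed by 0.49. Skeletal muscle markers summed to at most 6.06 CPM in every library. Whether fat in the samples sets the level of Car3 was not tested.

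**Figure D2:**
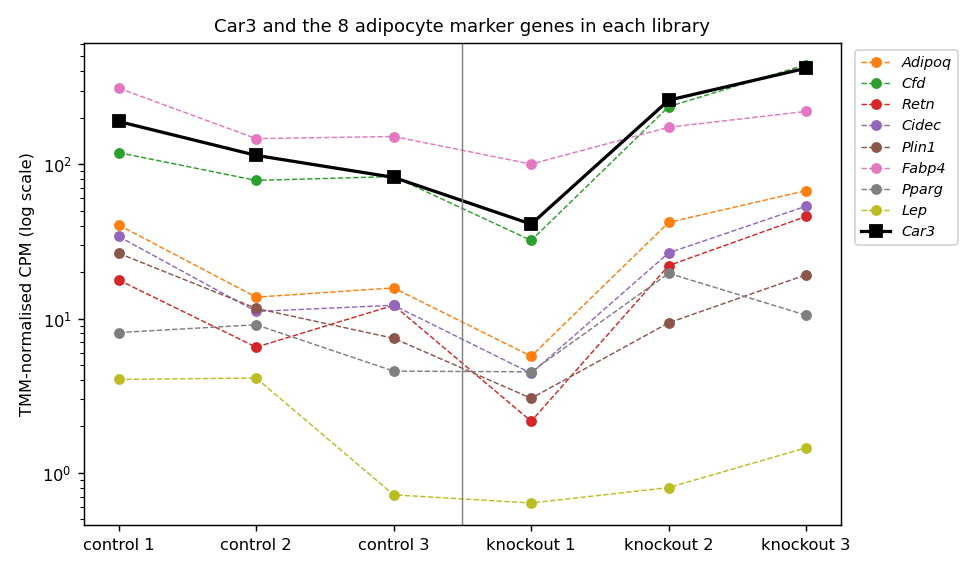
TMM-normalised CPM, on a log axis, of Car3 (black squares) and of the 8 adipocyte markers (coloured circles) in each of the 6 libraries, with a vertical line between control and knockout libraries. Every line has its lowest point in knockout 1, where Car3 was at 40.9 CPM.

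Car5b, the mitochondrial enzyme, lies on the X chromosome (chrX:160414754-160465929, minus strand) and had the smallest standard error of the 10. It was at 122, 98.3 and 125 CPM in the controls and at 78.3, 66.4 and 91.2 CPM in the knockouts. All knockouts lay below all controls. The means were 115 ± 14.7 and 78.7 ± 12.4 CPM (SD, n = 3 each), with a fitted log2 change of -0.55 (SE 0.17, 95% interval -0.96 to -0.14) that did not pass the test (edgeR adjusted p = 0.0649). Without control 2, the library that differs in sex-linked transcripts, the change was -0.66 (adjusted p = 0.123).

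Car8 (chr4:8070514-8166188, minus strand) was at 29.2, 23.2 and 19.7 CPM in the controls and at 10.8, 11.4 and 8.66 CPM in knockouts 1 to 3. The knockouts lay close together and well below every control, and knockout 1 did not stand apart from the other two. The means were 24.0 ± 4.81 and 10.3 ± 1.44 CPM (SD, n = 3 each), which gave a fitted log2 change of -1.22 (SE 0.21, 95% interval -1.73 to -0.72, edgeR adjusted p = 0.0286). Leaving out 1 library at a time gave changes of -1.35 to -1.08. The adjusted p was 0.0123 without knockout 1 and between 0.0610 and 0.118 without any 1 of the other 5 libraries.

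Of the lipid-anchored enzymes, Car4 is the surface enzyme of the proximal tubule and thick limb that acts on filtered bicarbonate (chr11:84771288-84779546, plus strand). It was at 104, 156 and 106 CPM in the controls and at 59.2, 14.4 and 19.2 CPM in knockouts 1 to 3. Every knockout lay below every control, and knockouts 2 and 3 were far below knockout 1. The means were 122 ± 29.1 and 30.9 ± 24.6 CPM (SD, n = 3 each), which gave a fitted log2 change of -1.98 (SE 0.54, 95% interval -3.25 to -0.71, edgeR adjusted p = 0.0480). Without knockout 1 the change was -2.88 (adjusted p = 0.00234), and without any 1 of the other 5 libraries it lay between -2.10 and -1.63 with adjusted p between 0.0952 and 0.140.

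Car15, the second lipid-anchored enzyme, showed no consistent direction. It was at 171, 107 and 161 CPM in the controls and at 235, 129 and 41.6 CPM in knockouts 1 to 3. Knockout 1 was above and knockout 3 below every control. The log2 fold change was -0.11 (SE 0.55, 95% interval -1.43 to 1.20, edgeR adjusted p = 0.898), and its sign turned with the scaling, to 0.12 with library size alone and 0.068 with library sizes that leave out the 10 highest genes. It ranged from -0.79 without knockout 1 to 0.32 without knockout 3. In the annotation 82.0% of the exon bases of Car15 (chr16:17835369-17838457, minus strand) overlap the gene Gm20518 on the same strand, and 35.8% of the 100-base words in its transcript are unique to it, against 100% for each of the other 9. Its counts are therefore the least certain of the 10.

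Of the transmembrane enzymes, Car14 of the proximal tubule membrane changed most and lay at percentile 0.626 of the log2 fold changes of all genes tested, counted from the lowest. It was at 94.6, 109 and 105 CPM in the controls and at 32.5, 9.48 and 7.66 CPM in knockouts 1 to 3. The controls lay within a narrow band, and the highest knockout was far below the lowest control. The means were 103 ± 7.29 and 16.6 ± 13.9 CPM (SD, n = 3 each), which gave a fitted log2 change of -2.62 (SE 0.55, 95% interval -3.92 to -1.33, edgeR adjusted p = 0.0324). Without knockout 1 the change was -3.59 (adjusted p = 0.00195), and without any 1 of the other 5 libraries it lay between -2.70 and -2.29 with adjusted p between 0.0670 and 0.118. Its exons share 445 bases (17.5%) with Aph1a on the opposite strand, a gene whose own change was -0.23 (adjusted p = 0.334), and without a known strand setting of the counting the reads of that stretch cannot be told apart.

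Car9 (chr4:43519838-43526601, plus strand) was at 13.1, 20.7 and 12.0 CPM in the controls and at 4.81, 4.17 and 4.29 CPM in the knockouts. The 3 knockouts were nearly equal, and the lowest control was above all of them. In the annotation 9.29% of its exon bases overlap Gm12454 on the opposite strand, whose reads cannot be told apart without a known strand setting. The counts behind these values were 264, 353 and 200 in the controls and 98, 83 and 56 in the knockouts. The means were 15.3 ± 4.75 and 4.42 ± 0.34 CPM (SD, n = 3 each), which gave a fitted log2 change of -1.79 (SE 0.28, 95% interval -2.44 to -1.13, edgeR adjusted p = 0.0277), and the smallest adjusted p over all genes was 0.0271. The adjusted p was 0.00842 without knockout 1 and between 0.0572 and 0.118 without any 1 of the other 5 libraries, with changes of -1.94 to -1.52 over the 6 fits. Among 16 HIF target genes that include Car9, 2 were called higher and 1, Car9 itself, was called lower, with a median log2 fold change of 0.13. Of the 16, 8 had a fitted change below 0. Over all genes 10.6% were called higher and 6.64% lower.

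Car12, the transmembrane enzyme of the collecting duct (chr9:66561493-66614652, plus strand), was at 246, 311 and 394 CPM in the controls and at 252, 126 and 107 CPM in knockouts 1 to 3. Knockout 1 lay inside the control range, the only such case among the 10 genes, while knockouts 2 and 3 lay below it. The means were 317 ± 74.4 and 162 ± 78.7 CPM (SD, n = 3 each), which gave a fitted log2 change of -0.97 (SE 0.36, 95% interval -1.82 to -0.12) that did not pass the test (edgeR adjusted p = 0.0966). Without knockout 1 it was -1.45 and passed (adjusted p = 0.00717).

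**Figure D3:**
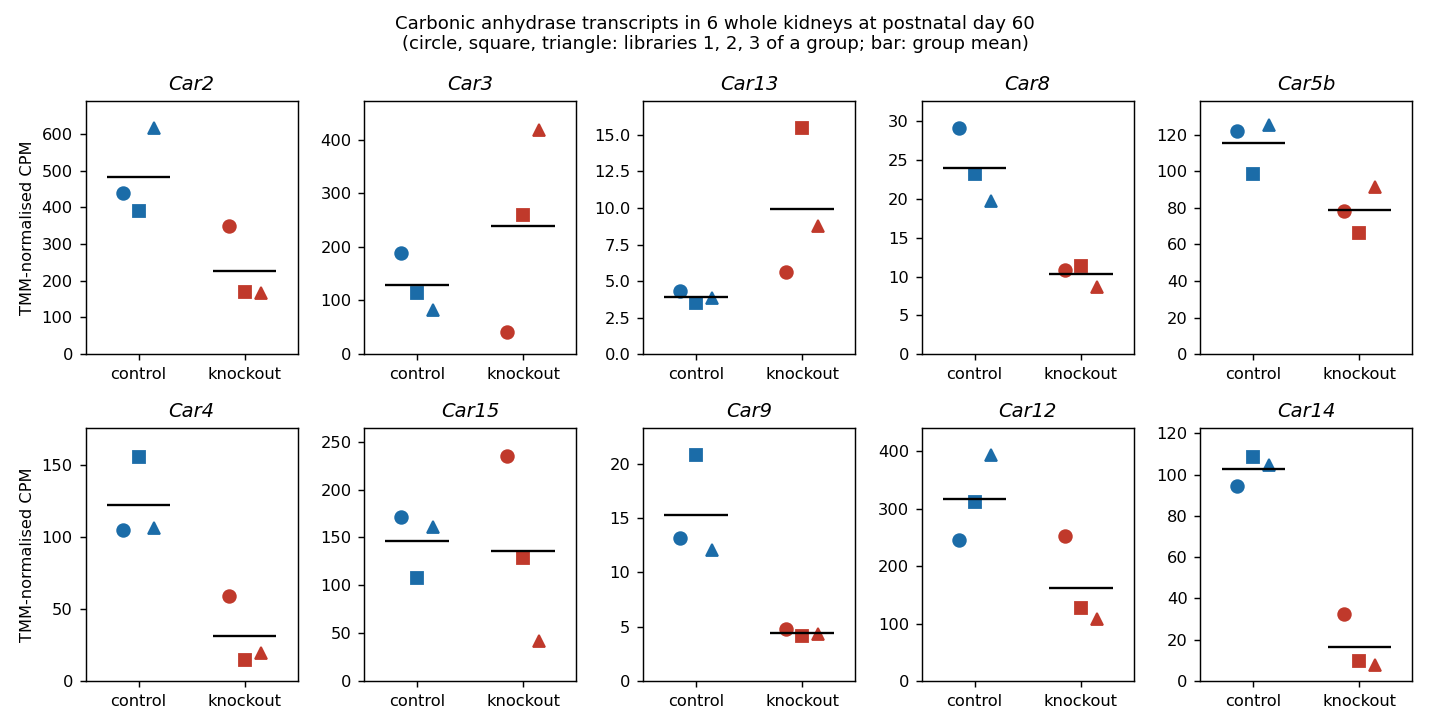
TMM-normalised CPM of each carbonic anhydrase in the 3 control (blue) and 3 knockout (red) kidneys, on linear axes that start at 0; circles, squares and triangles are libraries 1, 2 and 3 of a group and bars are group means. The groups are separate for Car2, Car13, Car8, Car5b, Car4, Car9 and Car14 and overlap for Car3, Car15 and Car12.

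To compare levels between genes, counts were set per length of exon, as RPKM on the TMM-scaled library sizes. Car2 was the highest of the 10 in the controls at 269.8 ± 66.4 RPKM, above Car15 (114 ± 26.7 RPKM) in every control. Car15, Car3 (85.2 ± 36.4 RPKM), Car12 (69.9 ± 16.4 RPKM) and Car4 (62.1 ± 14.8 RPKM) followed, and each neighbouring pair in this order overlapped over the 3 controls. Car14 (40.4 ± 2.87 RPKM) and Car5b (18.1 ± 2.32 RPKM) came next, each apart from its neighbours. Car9 (6.64 ± 2.06 RPKM) and Car8 (6.25 ± 1.25 RPKM) overlapped, and Car13 was lowest at 1.70 ± 0.18 RPKM. With the length of the longest transcript in place of all exons, Car4 moved from rank 5 to rank 3 (97.2 RPKM) and Car3 from rank 3 to rank 5.

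In the knockouts the order of the abundant enzymes was no longer clear, since Car3 (159 ± 126 RPKM), Car2 (127 ± 58.8 RPKM) and Car15 (105 ± 75.6 RPKM) overlapped. Summed over the 10 genes, the level was 684, 600.4 and 738 RPKM in the controls and 524, 428 and 462 RPKM in knockouts 1 to 3. Every knockout total was below every control total with TMM scaling. With library size alone the totals were 655, 511 and 682 RPKM in the controls and 546, 479.6 and 525 RPKM in the knockouts, and the groups overlapped. Car2 made up 36.0%, 36.4% and 46.7% of the total in the controls and 37.3%, 22.0% and 20.1% in the knockouts. Car3 made up 18.4%, 12.6% and 7.38% in the controls and 5.18%, 40.3% and 60.2% in the knockouts. The share of Car15, whose counts are the least certain, was 19.5%, 13.9% and 17.0% in the controls and 35.0%, 23.5% and 7.02% in the knockouts. Car2 and Car15 were the highest in knockout 1, with Car15 above its control range, whereas Car3 was the highest in knockouts 2 and 3. The share of Car14 was 5.44%, 7.12% and 5.59% in the controls and 2.44%, 0.872% and 0.653% in the knockouts, below all controls in every knockout. The share of Car5b lay between 2.35% and 3.11% in all 6 libraries, and its groups overlapped.

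**Figure D4:**
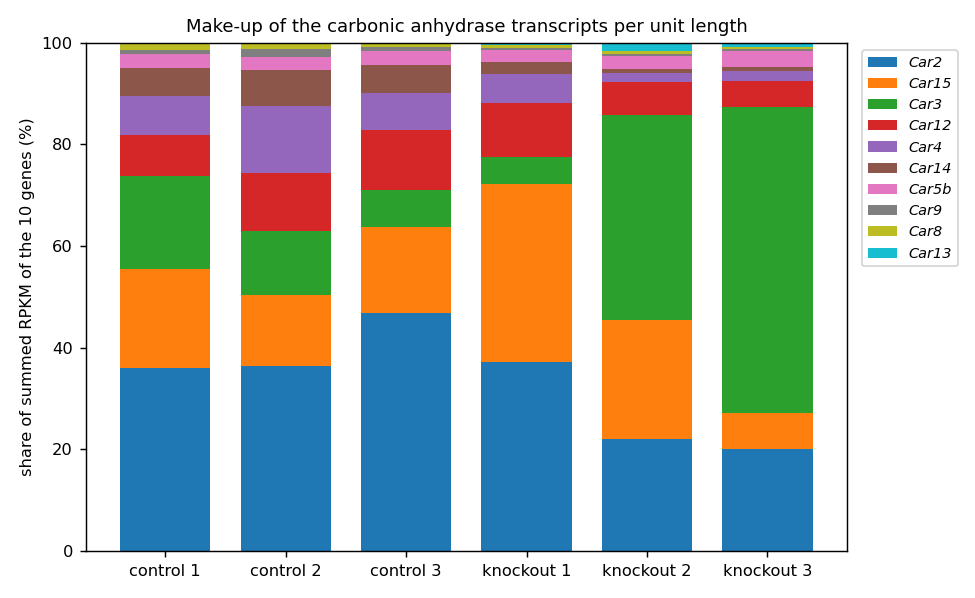
Share of each carbonic anhydrase in the RPKM summed over the 10 genes (percent, stacked from 0 to 100) for each of the 6 libraries. The share of Car2 (lowest segment) is 20.1% in knockout 3 against 36.0% to 46.7% in the controls, and that of Car3 is 60.2% in knockout 3.

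Ratios of CPM within a library do not depend on the scaling, and some pairs were set side by side after their values had been seen, as descriptions with no test. The log2 ratio of Car12 to Car2 was -0.84, -0.33 and -0.65 in the controls and -0.47, -0.42 and -0.63 in the knockouts. The groups overlapped, with the knockouts inside the control range. The ratio of Car13 to Car2, which lie at the ends of the chromosome 3 cluster, was -6.66, -6.78 and -7.32 in the controls and -5.95, -3.44 and -4.24 in knockouts 1 to 3, higher in every knockout. The ratio of Car5b to Car14 was 0.37, -0.14 and 0.26 in the controls and 1.27, 2.81 and 3.57 in the knockouts, again without overlap. The ratio of Car4 to Car14 was 0.14, 0.52 and 0.015 in the controls and 0.86, 0.60 and 1.32 in the knockouts, so Car14 was lower relative to Car4 in every knockout.

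When summed, the proximal tubule markers were lower in every knockout than in every control, as were Car4 and Car14. The summed level of the markers was 10066, 13495 and 14173 CPM in the controls and 5213, 2283 and 1816 CPM in knockouts 1 to 3. Among the knockouts this sum was lowest in knockout 3, and Car4 was lowest in knockout 2. None of the 10 markers was at 0 in any library. The mean log2 CPM of the list differed by -1.90 between the groups. Relative to that mean, Car4 lay at -2.49, -2.20 and -3.08 in the controls and at -2.48, -3.56 and -2.74 in the knockouts, and the groups overlapped. Car14 lay at -2.63, -2.71 and -3.10 in the controls and at -3.34, -4.16 and -4.05 in the knockouts, below all controls also on this scale. Car5b lay higher relative to the list in the knockouts, at -2.08, -1.36 and -0.50 against -2.27, -2.86 and -2.84 in the controls. The part of the markers in these changes was not tested further. Relative to the intercalated cell markers, Car2 lay at 2.74, 2.55 and 2.74 on the log2 scale in the controls and at 2.31, 2.51 and 0.96 in knockouts 1 to 3. Knockout 3 lay far below the others, and knockouts 1 and 2 lay just below the lowest control. Car2 itself was at 168 and 166 CPM in knockouts 2 and 3, where the intercalated cell markers summed to 442 and 1388 CPM. Relative to these markers, Car12 overlapped between the groups and was also lowest in knockout 3, at 0.33.

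Of the 8 other genes of the family, 4 had enough counts to be tested and 0 of them were called. Car1 and the secreted Car6 had at most 3 counts in any library, as did Car10, which encodes a protein without carbonic anhydrase activity. Car5a, the other mitochondrial enzyme, had 126, 68 and 41 counts in the controls and 51, 17 and 3 counts in knockouts 1 to 3. Its log2 fold change was -1.79 (SE 0.76, edgeR adjusted p = 0.130), knockout 1 was level with the lowest control in CPM, and without knockout 1 it was -2.90 and passed (adjusted p = 0.0220). The cytosolic Car7 differed by 0.75 on the log2 scale (SE 0.48, adjusted p = 0.286), and Car11, which has no carbonic anhydrase activity, differed by 0.35 (SE 0.45, adjusted p = 0.599). Ptprg, a receptor phosphatase with a carbonic anhydrase-like domain, was at 45.3 to 81.7 CPM in the controls and at 82.3 to 107 CPM in the knockouts, with a change of 0.46 (SE 0.24, adjusted p = 0.200). Its relative Ptprz1 had 4 to 8 counts in the controls and 7, 107 and 28 in knockouts 1 to 3, and was not tested.

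The carbonic anhydrases work with transporters that move protons, bicarbonate and ammonia across the tubule cell. Of 32 such genes, 31 were tested, of which 3 were called lower and 0 higher, against 6.64% and 10.6% of all genes. Fitted changes were below 0 for 19 and above 0 for 12, with a median of -0.62 against 0.02 over all genes. Adcy10, the bicarbonate-sensing adenylyl cyclase, had at most 23 counts in a library and was not tested.

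Slc4a4, the basolateral sodium-bicarbonate cotransporter of the proximal tubule, was at 705, 1016 and 1121 CPM in the controls and at 389, 344 and 139.6 CPM in knockouts 1 to 3, without overlap. Its log2 fold change was -1.70 (SE 0.41, edgeR adjusted p = 0.0396), a fall in the same direction as Car4 and Car14. Glud1, the glutamate dehydrogenase that contributes to ammonia production, was at 694, 598 and 674 CPM in the controls and at 385, 397 and 358 CPM in the knockouts. The knockouts of Glud1 lay close together below all controls, with a change of -0.79 (SE 0.18, adjusted p = 0.0348). Insrr, an alkali-sensing receptor of intercalated cells, was at 52.1, 50.2 and 90.9 CPM in the controls and at 32.8, 18.6 and 31.6 CPM in the knockouts, with a change of -1.22 (SE 0.31, adjusted p = 0.0439). As with the carbonic anhydrases, none of these 3 calls was kept when any 1 library other than knockout 1 was left out.

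Slc9a3, the sodium-proton exchanger of the luminal membrane, was at 122, 103 and 60.5 CPM in the controls and at 39.9, 7.18 and 2.53 CPM in knockouts 1 to 3. All knockouts lay below all controls, but the change of -2.51 (SE 0.91) did not pass the test (edgeR adjusted p = 0.0900). Slc4a1, the anion exchanger of acid-secreting intercalated cells, was at 124, 117 and 67.1 CPM in the controls and at 60.1, 6.47 and 20.2 CPM in the knockouts, also without overlap, with a change of -1.82 (SE 0.72, adjusted p = 0.113). Slc4a1 is also a red cell gene, and the red cell marker Alas2 differed by -0.27 between the groups. The part of blood in the values of Slc4a1 was not tested. Aqp1, the water channel of the proximal tubule, was at 1392, 1377 and 856 CPM in the controls and at 1158, 353 and 324 CPM in the knockouts. Knockout 1 lay inside the control range for Aqp1, as it did for Car12, and the change was -0.98 (SE 0.54, adjusted p = 0.219).

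**Figure D5:**
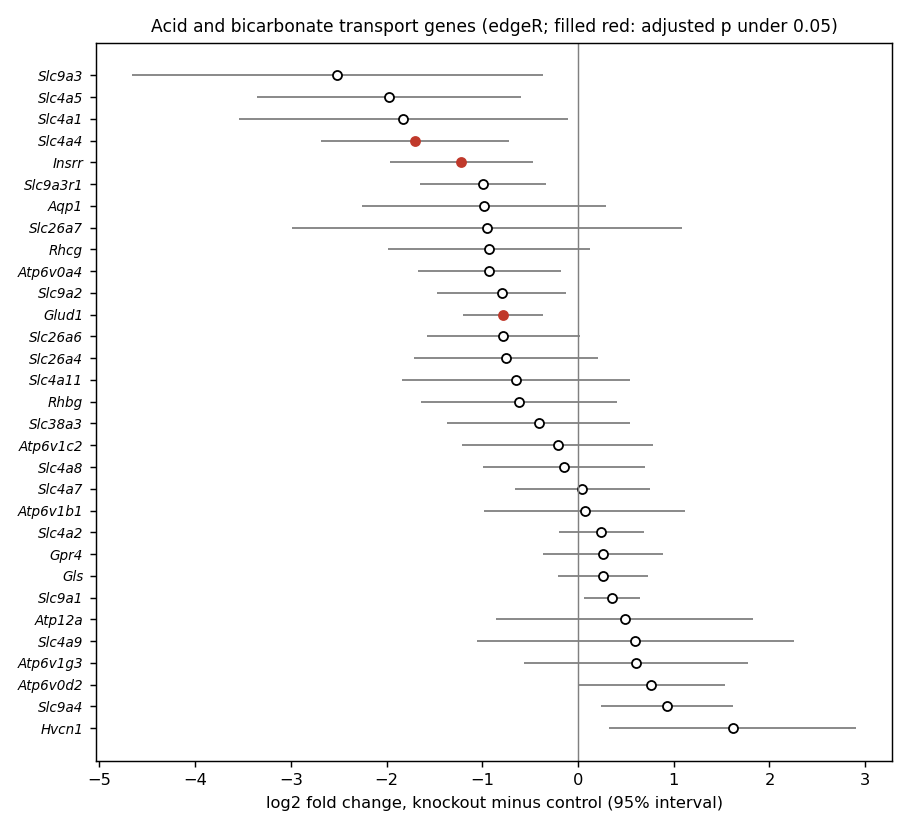
Log2 fold change (knockout minus control) with 95% interval for the 31 tested genes of acid and bicarbonate transport, ordered by size, with red circles where the edgeR adjusted p was under 0.05. The red circles are Slc4a4 at -1.70, Insrr at -1.22 and Glud1 at -0.79, and no gene to the right of 0 is red.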

How the data were processed

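RNA sequencing of 6 whole kidneys was used, with groups and replicate numbers from the sample titles. The authors deposited unnormalised counts for each gene, as 1 table for the controls and 1 for the knockouts. Per the study's methods and the submitters' processing notes, the authors called bases with CASAVA 1.8.2, trimmed reads with Trimmomatic, aligned single-end reads to mm9 with TopHat 2.0.11, kept uniquely mapped reads and counted them with HTSeq. The annotation and strand setting of the counting are not given in the sources used here, so overlapping genes are uncertain.

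The 10 genes, the gene lists, the tests and most alternatives were chosen with earlier results of these data known. Counts were fitted on the whole table with edgeR 4.0.16 in R 4.3.3 (TMM, filterByExpr with a minimum count of 10 and a minimum total of 15, quasi-likelihood F-test in its legacy version, Benjamini-Hochberg over 15171 genes). The SE is the log2 fold change divided by the square root of F. Values relative to marker lists used log2 CPM with a prior count of 2. Alternatives were DESeq2 1.42.0, limma-voom (limma 3.58.1), other scalings and filters, a replicate block, a covariate from sex-linked transcripts (Xist against Y-linked genes), other thresholds, transcript length, and leaving out each library. Named genes are the 10 members, 8 relatives, Tfrc, called genes of the 32 of acid and bicarbonate transport, and Slc4a4, Slc4a1, Slc9a3 and Aqp1 whatever their values. Adipoq, Plin1, Fabp4, Pparg, Lep, Alas2, Aph1a and the sex-linked and ribosomal transcripts are given because their values stand beside a result, and Adcy10 because it was the 1 listed gene not tested. These were chosen after their values were seen. Coordinates and lengths are from GENCODE M1 (mm9), and upstream sequence is from RefSeq on GRCm38.p6. No batch is given in the labels. The labels name the libraries biological replicates.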

Additional observations from a re-analysis of the deposited data

How the results depend on the processing

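The count of carbonic anhydrases called (4 of 10, with 2612 of all genes and 3 of the acid-base list) stayed at 4 or 5 under the other scalings, filters, limma-voom and the newer quasi-likelihood version. Over all genes these settings called between 2030 (limma-voom) and 3647 (library size alone). Limma-voom called 6 of the acid-base list. DESeq2's Wald test called 8 of 10, 4861 genes and 11 of the list, and an adjusted p under 0.1 gave 8, 5034 and 11. An adjusted p under 0.01 gave 0, 0 and 0. Leaving out 1 library gave 0 to 8 of the 10, 0 to 5332 of all genes and 0 to 14 of the list, the highest each time without knockout 1. The covariate gave 0, 0 and 0, with 7 of the 10 and 4221 genes at an unadjusted p under 0.05.

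With the replicate block the counts were 0, 0 and 0, with 7 of the 10 and 5432 genes at an unadjusted p under 0.05. Deviations of same-numbered libraries correlated at -0.13, 0.012 and 0.21. They were not compared with libraries of different number, so they cannot decide whether the numbers pair the libraries.

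Library size alone called 5 of 10, where it called 24% of all genes, against 17.2% with TMM. It moved the median of all genes from 0.02 to 0.29, and 81.8% of its calls were higher against 61.4% with TMM. Library sizes without the 10 highest genes called 5 of 10, where 21.8% of all genes were called. They moved the median to 0.24, and 78.8% of the calls were higher. Both added Car13. Car15 reversed to 0.12 and 0.068 with these scalings, and ranged from -0.79 to 0.32 without 1 library. Car11 ranged from -0.057 to 0.63. No other log2 fold change of the 14 tested family genes changed sign. Over the alternatives of these genes, 194 values kept direction and side of the threshold, 28 lost the call, 11 gained it and 4 reversed. In knockout 3, the shallowest library, Car5a had 3 counts, Car9 had 56 and Car14 had 100. Length by the longest transcript changed levels between genes and no fold change.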
